A study of Mus musculus with 14 samples.

Results

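The genes described here were 10 immediate-early transcription factor genes, *Fos*, *Fosb*, *Fosl1*, *Fosl2*, *Jun*, *Junb*, *Jund*, *Egr1*, *Atf3* and *Ier2*. They were chosen by name, as the AP-1 subunits of the Fos and Jun families with 3 further genes of the same early response. All 10 were among the 19525 genes counted. Earlier results of these data were known when these genes and the companion lists were chosen, so counts of genes called from them are descriptions. Polyadenylated RNA was sequenced from the cytosolic lysate of spheroids of 4T1, a mouse triple-negative mammary cancer line, after 5 days in lung-like medium (LLM), which imitates the nutrients of lung interstitial fluid. Control spheroids with a scrambled hairpin received 700 µM aspartate (ASP shSCR, n = 4) or no added aspartate (NoASP shSCR, n = 3). The silenced spheroids, all with 700 µM aspartate, carried a hairpin against *Grin2d*, which encodes an NMDA receptor subunit (ASP shGRIN2D, n = 3), or against *Dhps*, the deoxyhypusine synthase that starts the hypusination of the translation factor eIF5A (ASP shDHPS, n = 4). The hairpins were delivered by lentivirus, and a knockdown without aspartate was not analysed here. The lysate was the input of a polysome preparation, so spheroids of all 4 groups were washed in cold buffer with cycloheximide, which stops translation, before lysis.

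Immediate-early genes are transcribed within minutes of a signal, without the need for new protein, and most of their messengers are short-lived. Serum and growth factors reach them through ERK and the serum response factor, calcium entry reaches them through CREB, and in neurons the NMDA receptor is a classical route to *Fos* and *Egr1*. Their proteins form AP-1, a dimer of a Fos and a Jun protein or of 2 Jun proteins, which in breast cancer cells acts on genes of proliferation and invasion. An arrest of translation is known to prolong these messengers, and the levels are those found after this wash. The wash was shared by all groups, and its part in the levels was not tested.

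Levels are given as CPM, the counts of a gene scaled to a common library size, and a difference as the log2 fold change of an edgeR quasi-likelihood fit of all 14 libraries with its standard error (SE). A gene was called when its Benjamini-Hochberg adjusted p over 19525 genes was under 0.05. The shares of all genes called given below are over these 19525, many of low count. Of them 10224 averaged 5 CPM or more, as did every member. With low-count genes filtered out, 915 of 13421 genes were called in ASP shDHPS against ASP shSCR, beside 824 of 19525 without the filter. Libraries held 12731123 to 23231378 counts, and the members had between 68 counts (*Fos*, ASP shSCR replicate 4) and 8514 counts (*Jund*, ASP shSCR replicate 1) in a library. *Dhps* measured 5.46 to 9.08 CPM in ASP shDHPS and 16.7 to 23.8 CPM elsewhere. *Grin2d* measured 2.06 to 3.13 CPM in ASP shGRIN2D and 3.23 to 4.16 CPM in ASP shSCR, but 2.21 to 4.59 CPM in ASP shDHPS and 3.05 to 6.95 CPM in NoASP shSCR, which both overlapped ASP shGRIN2D. Replicate 2 of ASP shSCR and of NoASP shSCR stood apart from the other shSCR libraries, at -25.8 and -19.7 on a first principal component that ran from -8.66 to 6.28 in the other 5, so values without them are given where they matter. Of the epithelial markers fixed for the line, *Epcam* (418 to 687 CPM) and *Krt8* (1261 to 1787 CPM) were abundant in every library. In bulk RNA, fewer cells of a kind and less RNA per cell cannot be told apart. *Dcn*, *Ptprc* and *Cdh5*, which mark fibroblasts, leukocytes and endothelium, had at most 1, 12 and 3 counts, while *Pdgfra* of the fibroblast list had 357 to 730 counts (22.7 to 40.7 CPM) and *Cd68* of the leukocyte list 126 to 296.

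The AP-1 genes differed widely in level. Per kilobase of exon, *Jund* led with 223 ± 19.8 CPM (SD over 14 libraries), followed by *Junb* with 117 ± 22.4 and *Fosl1* with 96.9 ± 28.4. *Ier2* had 60.2 ± 6.24, *Jun* 29.8 ± 3.21 and *Egr1* 14.2 ± 3.13 CPM per kilobase. *Fosl2*, *Atf3*, *Fos* and *Fosb* lay lowest, with 7.95 ± 1.15, 5.48 ± 2.33, 3.25 ± 0.793 and 1.78 ± 0.354. Per kilobase, the order was strict in all 14 libraries between *Jund* and *Junb*, between *Ier2*, *Jun*, *Egr1* and *Fosl2* in turn, and between *Fos* and *Fosb*. *Junb* lay above *Fosl1* in 9 of 14 libraries, *Fosl1* above *Ier2* in 12, *Fosl2* above *Atf3* in 11 and *Atf3* above *Fos* in 13, so these neighbours did not hold their order in every library.

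**Figure D1:**
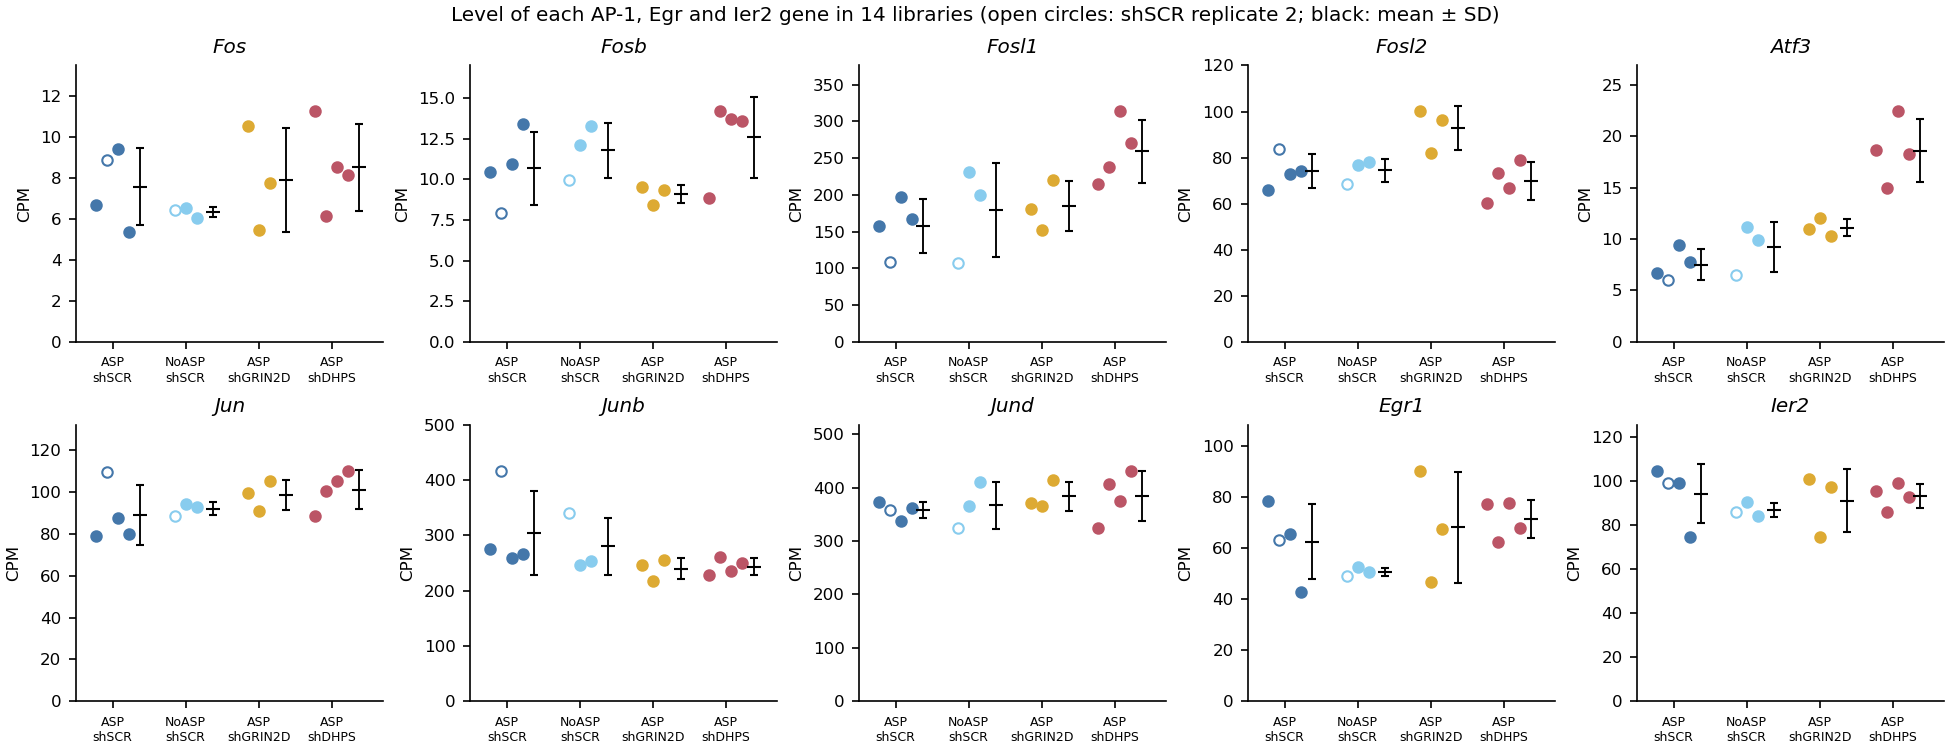
CPM (linear axis from 0) of the 10 genes in each library, by group, with the group mean ± SD in black and replicate 2 of the shSCR groups as open circles. ASP shDHPS lay above ASP shSCR without overlap for *Atf3* (14.9 to 22.4 against 6.01 to 9.46 CPM) and *Fosl1* (215 to 314 against 109 to 196 CPM), and the open circles are the highest shSCR values of *Junb* and the lowest of *Fosl1*.

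The prototype of the family, *Fos* (ENSMUSG00000021250), was among the least abundant members. It measured 6.69, 8.85, 9.41 and 5.34 CPM in ASP shSCR replicates 1 to 4, and 6.42, 6.54 and 6.06 CPM in NoASP shSCR replicates 2 to 4. In the knockdowns it measured 10.5, 5.46 and 7.73 CPM in ASP shGRIN2D and 11.2, 6.13, 8.53 and 8.11 CPM in ASP shDHPS. All groups overlapped, and the 3 NoASP shSCR libraries lay closer together (SD 0.251 CPM) than those of the other groups (SD 1.89 to 2.53 CPM).

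The promoter of *Fos* is shown because calcium and cAMP signals are known to reach it through a CREB site close to the start. It covers 250 bases before to 50 bases after the start in RefSeq (mouse genome GRCm38.p6, chr12:85473640-85473939, forward strand), with capitals at TGACG, the core of a cAMP response element on either strand, and at the TATA box TATAAA.
Fos: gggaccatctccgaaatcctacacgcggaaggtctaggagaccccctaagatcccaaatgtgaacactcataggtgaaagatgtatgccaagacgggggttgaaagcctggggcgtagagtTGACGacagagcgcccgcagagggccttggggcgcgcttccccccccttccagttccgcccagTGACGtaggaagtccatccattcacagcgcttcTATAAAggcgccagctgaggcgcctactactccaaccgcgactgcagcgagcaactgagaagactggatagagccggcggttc
The first letter of TGACG lay at -129 and -66 and that of TATAAA at -33, with the start as position 0. Of 32851 promoter windows of the same length, 20.8% held TGACG on either strand and 13.6% TATAAA. Sequences of 7 of the 10 members were matched; *Egr1*, *Fosl1* and *Ier2* were not among them. TGACG was also present once each in *Fosb* (-60), *Junb* (-106) and *Atf3* (-7), and these letters were not in the windows of *Jun*, *Fosl2* and *Jund*. The full palindrome TGACGTCA, the AP-1 site TGAGTCA and the CArG box bound by the serum response factor were found in none of the 7 windows, against 1.79%, 5.2% and 1.63% of all. Sites more than 250 bases before the start lie outside these windows and were not looked for, so their absence from the promoters is not shown.

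*Fosb* (ENSMUSG00000003545), a close relative of *Fos*, was the lowest member per kilobase. Its values were 10.4, 7.91, 10.9 and 13.4 CPM in ASP shSCR, 9.96, 12.1 and 13.3 in NoASP shSCR and 9.53, 8.45 and 9.33 in ASP shGRIN2D. In ASP shDHPS replicate 1 lay at 8.88 CPM and the other libraries at 14.2, 13.7 and 13.6. *Fosl1* (ENSMUSG00000024912), which encodes the Fra-1 protein tied to invasive mammary cancer cells, was the Fos family gene that dominated. It measured 158, 109, 196 and 167 CPM in ASP shSCR, 107, 231 and 200 in NoASP shSCR and 181, 153 and 220 in ASP shGRIN2D. In ASP shDHPS it measured 215, 238, 314 and 271 CPM, each above every ASP shSCR library. The lowest values of the control groups were those of replicate 2 in both.

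*Fosl2* (ENSMUSG00000029135), which encodes Fra-2, was the Fos family gene with its highest group mean in ASP shGRIN2D. It had 66.0, 83.7, 72.7 and 74.4 CPM in ASP shSCR, 68.7, 76.7 and 78.0 in NoASP shSCR, and 60.1, 73.3, 66.6 and 79.1 in ASP shDHPS. ASP shGRIN2D had 100.1, 82.2 and 96.4 CPM, with replicate 2 inside the range of ASP shSCR. Taking the 4 genes per kilobase of exon, *Fosl1* held 79.7% to 92.4% of the Fos family transcripts in a library and *Fos* itself 2.01% to 5.59%. These shares depend on the merged exon lengths, 2033 bases for *Fosl1*, 2352 for *Fos*, 6243 for *Fosb* and 9680 for *Fosl2*. Without scaling by length, the ASP shSCR means were 158 CPM for *Fosl1*, 74.2 for *Fosl2*, 10.7 for *Fosb* and 7.57 for *Fos*.

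In the Jun family, *Jund* (ENSMUSG00000071076), the subunit known for steady expression, was the most abundant per kilobase. It ranged from 337 to 372 CPM in ASP shSCR, 324 to 410 in NoASP shSCR, 365 to 414 in ASP shGRIN2D and 324 to 432 in ASP shDHPS. *Jun* (ENSMUSG00000052684), which binds DNA strongly and is activated by JNK kinases, ranged from 78.9 to 109.8, 88.5 to 94.4, 91.1 to 105 and 88.7 to 110 CPM in the same groups. *Junb* (ENSMUSG00000052837), which can restrain *Jun*, measured 276, 417, 258 and 267 CPM in ASP shSCR and 340, 247 and 254 in NoASP shSCR, with replicate 2 highest in both. It measured 247, 218 and 255 CPM in ASP shGRIN2D and 228, 261, 235 and 249.7 in ASP shDHPS. Without replicate 2, the ASP shSCR mean of *Junb* was 267 ± 8.57 CPM (SD, n = 3), and with it 305 ± 75.4 CPM (SD, n = 4).

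*Egr1* (ENSMUSG00000038418), a zinc finger factor induced by ERK signals, measured 78.3, 62.9, 65.5 and 42.9 CPM in ASP shSCR and 48.9, 52.3 and 50.4 in NoASP shSCR. In the knockdowns it measured 90.2, 46.7 and 67.4 CPM in ASP shGRIN2D and 77.2, 62.3, 77.3 and 67.6 in ASP shDHPS. NoASP shSCR was again the tightest group. *Ier2* (ENSMUSG00000053560), a nuclear protein of the early response, ranged from 74.5 to 105 CPM in ASP shSCR, 84.1 to 90.3 in NoASP shSCR, 74.6 to 101 in ASP shGRIN2D and 86.1 to 99.1 in ASP shDHPS.

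*Atf3* (ENSMUSG00000026628) encodes a stress-induced factor of the ATF family that pairs with Jun proteins. It measured 6.73, 6.01, 9.46 and 7.78 CPM in ASP shSCR and 6.53, 11.2 and 9.95 in NoASP shSCR. ASP shGRIN2D had 11.0, 12.0 and 10.3 CPM, and ASP shDHPS 18.7, 14.9, 22.4 and 18.3. Thus each ASP shGRIN2D library lay above each ASP shSCR library, and each ASP shDHPS library lay above every other library. Its promoter is shown because *Atf3* had the largest difference of the members and carries an ATF/CREB type site beside the start (RefSeq, GRCm38.p6, chr1:191183284-191183583, reverse strand), with TTACGTCA in capitals.
Atf3: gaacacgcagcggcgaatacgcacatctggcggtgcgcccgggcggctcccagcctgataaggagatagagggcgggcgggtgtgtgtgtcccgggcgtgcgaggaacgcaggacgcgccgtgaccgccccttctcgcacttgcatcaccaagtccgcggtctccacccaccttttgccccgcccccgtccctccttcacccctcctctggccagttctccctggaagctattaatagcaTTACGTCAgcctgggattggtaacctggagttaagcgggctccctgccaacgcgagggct
TTACGTCA lay at -10, shares 5 bases with the TGACG found at -7 on the other strand, and was present in 0.499% of the 32851 windows on either strand. A match of letters does not show that a factor was bound.

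The first comparison, ASP shSCR against NoASP shSCR, asked whether these messengers differed after 5 days with aspartate. A brief response soon after aspartate was added could not be seen at this time. None of the 10 members was called, and over all genes the share called was 0%. None had an unadjusted p under 0.05, where 424 of all 19525 genes did, and DESeq2 called none of the members. *Egr1* had the highest estimate, 62.4 ± 14.6 CPM (SD, n = 4) with aspartate against 50.6 ± 1.71 CPM (SD, n = 3) without, a log2 fold change of 0.31 (SE 0.17, adjusted p = 1). For *Fos* it was 0.26 (SE 0.23) and for *Ier2* 0.12 (SE 0.11). *Atf3* (-0.30, SE 0.19), *Fosl1* (-0.18, SE 0.20) and *Fosb* (-0.15, SE 0.18) had estimates below 0. *Junb* was at 0.12 (SE 0.14), and *Jun*, *Jund* and *Fosl2* lay between -0.05 and -0.01. All 10 members overlapped between the groups. How many of all genes overlap is not given, so here and below overlap or its absence describes values and is not a test.

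In these groups, libraries that share a number tended to deviate alike, and NoASP shSCR has no replicate 1. Set side by side by number, *Egr1* with and without aspartate was 62.9 and 48.9 CPM in replicate 2, 65.5 and 52.3 in replicate 3, and 42.9 and 50.4 in replicate 4. *Fos* showed the same pattern, higher with aspartate by 2.43 and 2.87 CPM in replicates 2 and 3 and lower in replicate 4 (-0.719 CPM). *Atf3* was lower with aspartate in all 3 pairs (-0.517, -1.73 and -2.18 CPM), and *Junb* was higher in all 3 (77.1, 11.9 and 13.5 CPM). With the replicate number as a block, none of the members was called either. An SE of 0.10 to 0.23 on the log2 scale limits what these groups could show, and absence of a call does not show that the levels were equal.

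**Figure D2:**
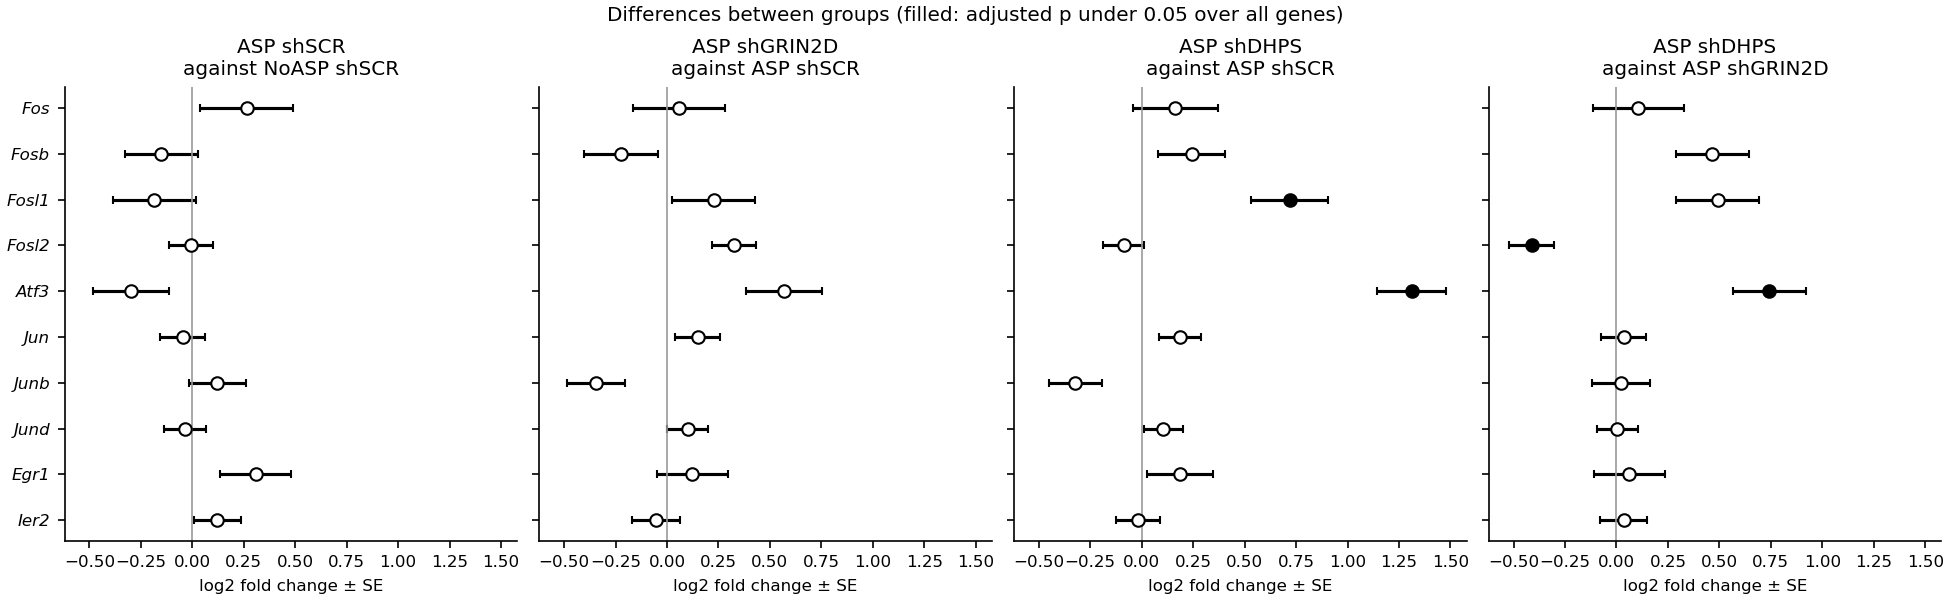
Log2 fold change of the 10 genes ± SE (edgeR) in the 4 comparisons, with filled points where the adjusted p over all genes was under 0.05. The filled points are *Atf3* (1.31) and *Fosl1* (0.72) in ASP shDHPS against ASP shSCR, and *Atf3* (0.74) and *Fosl2* (-0.41) in ASP shDHPS against ASP shGRIN2D.

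The *Grin2d* knockdown asked whether the levels of these genes after 5 days with aspartate depend on the NMDA receptor subunit. Here too, a brief early response could not be seen. None of the 10 members was called, where 1.16% of all genes were. DESeq2 called none of them either. Where 2040 of all 19525 genes had an unadjusted p under 0.05, 3 members did. These were *Atf3* with a log2 fold change of 0.57 (SE 0.18, adjusted p = 0.183), *Fosl2* with 0.32 (SE 0.11, adjusted p = 0.199) and *Junb* with -0.34 (SE 0.14, adjusted p = 0.359). *Atf3* averaged 11.1 ± 0.861 CPM (SD, n = 3) against 7.50 ± 1.50 CPM (SD, n = 4), without overlap, and NoASP shSCR reached 11.2 CPM in 1 library. *Junb* also did not overlap, with at most 255 CPM against at least 258 CPM. Its estimate went to -0.16 (adjusted p = 0.733) without ASP shSCR replicate 2. The receptor-linked genes *Fos* (0.06, SE 0.22) and *Egr1* (0.12, SE 0.17) had estimates near 0, with replicate 1 high and replicate 2 low for both. The median over the 10 members was 0.11, and over all genes it was 0.

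The *Dhps* knockdown asked the same of eIF5A hypusination. *Atf3* and *Fosl1* rose, 2 of 10 members, where 4.22% of all genes were called. *Atf3* rose 2.48-fold, from 7.50 ± 1.50 to 18.6 ± 3.07 CPM (SD, n = 4 each), a log2 fold change of 1.31 (SE 0.17, adjusted p = 0.000103). *Fosl1* rose 1.65-fold, from 158 ± 36.3 to 259 ± 42.9 CPM (SD, n = 4 each), a log2 fold change of 0.72 (SE 0.19, adjusted p = 0.0298). *Atf3* kept its call when each of the 8 libraries was left out. *Fosl1* lost it without ASP shSCR replicate 1 (log2 fold change 0.72, adjusted p = 0.0524), 2 (0.58, 0.0922) or 4 (0.75, 0.0551) and without ASP shDHPS replicate 3 (0.61, 0.119), and it kept it when replicate 2 was left out of both shSCR groups (0.58, 0.0115).

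The other 8 members were not called with the *Dhps* hairpin. An unadjusted p under 0.05 was found for 3769 of 19525 genes and, besides *Atf3* and *Fosl1*, for *Junb* among the members. *Junb* had a log2 fold change of -0.32 (SE 0.13, adjusted p = 0.171), which was -0.13 (adjusted p = 0.585) without ASP shSCR replicate 2. With the replicate number as a block it was called (-0.30, adjusted p = 0.0330), although the numbers were not shown to pair these libraries. *Fosb* (0.24, SE 0.16), *Jun* (0.18, SE 0.10), *Egr1* (0.18, SE 0.16), *Fos* (0.16, SE 0.21) and *Jund* (0.10, SE 0.09) had estimates above 0. *Ier2* (-0.02, SE 0.11) and *Fosl2* (-0.09, SE 0.10) lay close to 0. The median over the members was 0.17, beside 0.00 over all genes. ASP shDHPS replicate 1, which lay at 27.6 on the first principal component, had the highest *Fos* of its group. It had the lowest *Fosb*, *Fosl1*, *Fosl2*, *Jun*, *Junb* and *Jund* of the group.

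Whether the 2 knockdowns differed was tested directly as ASP shDHPS against ASP shGRIN2D, since both were compared with the same ASP shSCR libraries. *Atf3* was higher and *Fosl2* lower with the *Dhps* hairpin, 2 of 10 members, where 2.82% of all genes were called. The difference was 0.74 for *Atf3* (SE 0.18, adjusted p = 0.0240) and -0.41 for *Fosl2* (SE 0.11, adjusted p = 0.0363), from 18.6 ± 3.07 against 11.1 ± 0.861 CPM and from 69.8 ± 8.23 against 92.9 ± 9.44 CPM (SD, n = 4 and 3), and neither gene overlapped between the groups. *Fosl1* (0.49, SE 0.20, adjusted p = 0.240) and *Fosb* (0.47, SE 0.18, adjusted p = 0.196) had an unadjusted p under 0.05 and were not called. Of all 19525 genes, 2898 had an unadjusted p under 0.05.

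With 3 ASP shGRIN2D libraries these calls were not robust to leaving out a library. *Atf3* lost its call without ASP shGRIN2D replicate 1 (0.73, adjusted p = 0.123), 2 (0.80, 0.0593) or 3 (0.69, 0.122) and without ASP shDHPS replicate 3 (0.64, 0.0876). *Fosl2* lost it without ASP shGRIN2D replicate 1 (-0.36, 0.228) or 3 (-0.39, 0.160) and without ASP shDHPS replicate 1 (-0.35, 0.0859), 2 (-0.44, 0.0552) or 3 (-0.39, 0.0994). The estimates kept their sign in each of these fits.

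**Figure D3:**
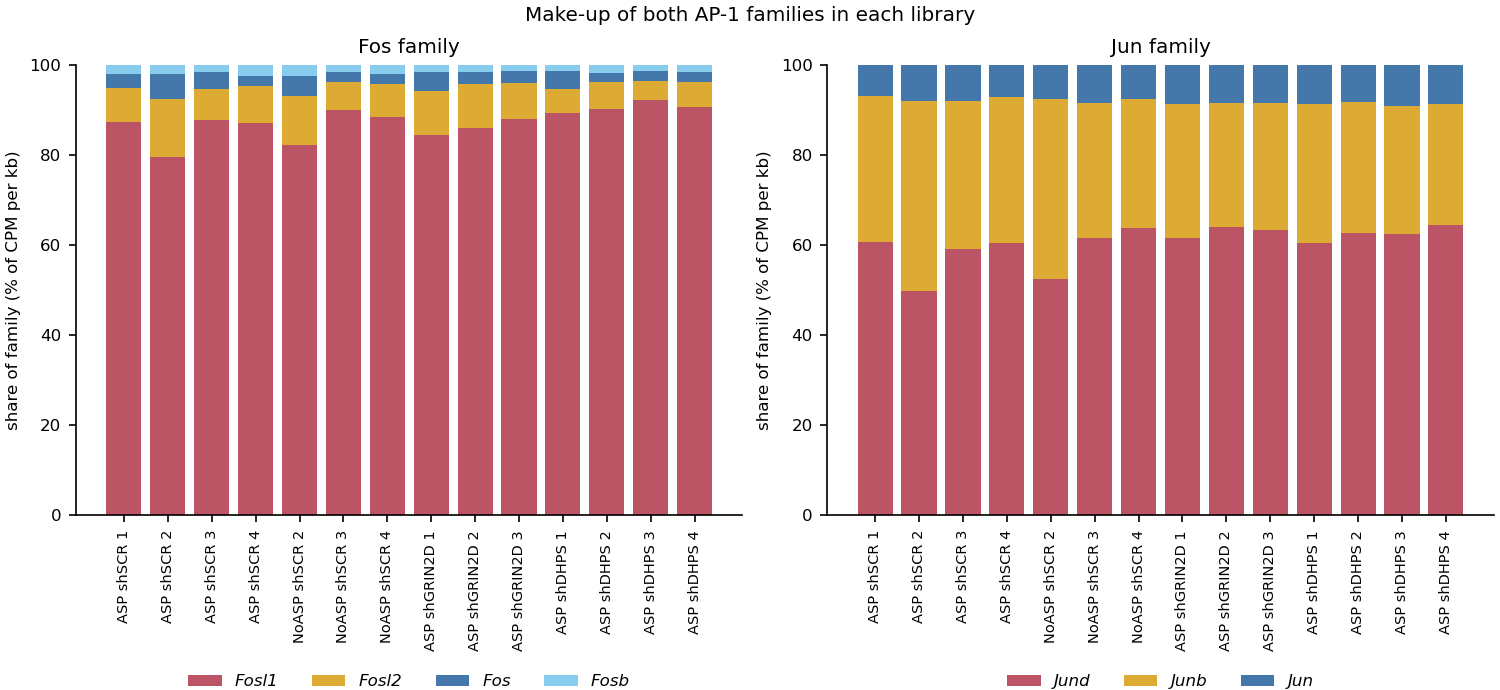
Share of each gene in the Fos family (left) and the Jun family (right) of every library, in percent of the summed CPM per kilobase of exon. *Fosl1* makes up 79.7% to 92.4% of the Fos family, and the lowest *Fosl1* and highest *Junb* shares belong to replicate 2 of both shSCR groups.

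The same levels give the make-up of the AP-1 transcripts. The *Fosl1* share of the Fos family was 85.5 ± 3.90% in ASP shSCR, 86.9 ± 4.14% in NoASP shSCR, 86.2 ± 1.77% in ASP shGRIN2D and 90.7 ± 1.21% in ASP shDHPS (SD). The *Fosl2* share was 8.87 ± 2.70%, 8.20 ± 2.53%, 9.22 ± 0.975% and 5.20 ± 0.755% in the same order. Every ASP shDHPS library had a higher *Fosl1* and a lower *Fosl2* share than any ASP shSCR library. The ratio of Jun to Fos family transcripts was 4.36 ± 1.42 in ASP shSCR, 4.02 ± 1.55 in NoASP shSCR, 3.51 ± 0.377 in ASP shGRIN2D and 2.65 ± 0.357 in ASP shDHPS, and it was highest in replicate 2 of the shSCR groups (6.40 and 5.77). *Jund* held 49.9% to 64.4% of the Jun family transcripts and *Jun* 6.73% to 9.16%. These shares and ratios depend on the exon lengths used and were not tested.

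Within groups, some members deviated together. Over the 14 libraries, deviations of log2 CPM from the group mean correlated with Pearson r = 0.95 (Spearman 0.88) for *Egr1* and *Ier2*, 0.76 (0.73) for *Fos* and *Egr1*, and 0.76 (0.62) for *Fos* and *Ier2*. Without the 2 libraries farthest from the median, r was 0.87, 0.54 and 0.55. ASP shGRIN2D replicate 2 and ASP shSCR replicate 4 were low in all 3 genes. For *Fosl2* and *Jun* r was 0.80, and 0.73 without the 2 farthest libraries. Other pairs also had sizeable values, with 0.68 for *Fosb* and *Fosl1*, 0.65 for *Fosl2* and *Jund*, and 0.64 for *Jun* and *Junb* and for *Fosb* and *Jund*.

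*Atf3* and *Fosl1* deviated together (r = 0.78), and *Junb* ran against them (r = -0.80 with *Atf3*, -0.69 with *Fosl1*). Both of these relations with *Fosl1* leaned on replicate 2 of the shSCR groups, since without these libraries r was 0.56 for *Atf3* with *Fosl1* and -0.23 for *Fosl1* with *Junb*, while *Atf3* with *Junb* stayed at -0.72. In ASP shSCR, replicate 2 had 1.56 times the mean *Junb* of the other libraries and 0.628 times their *Fosl1*. In NoASP shSCR the values were 1.36 and 0.498 times. The points share depth and library preparation, and these correlations are descriptions.

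**Figure D4:**
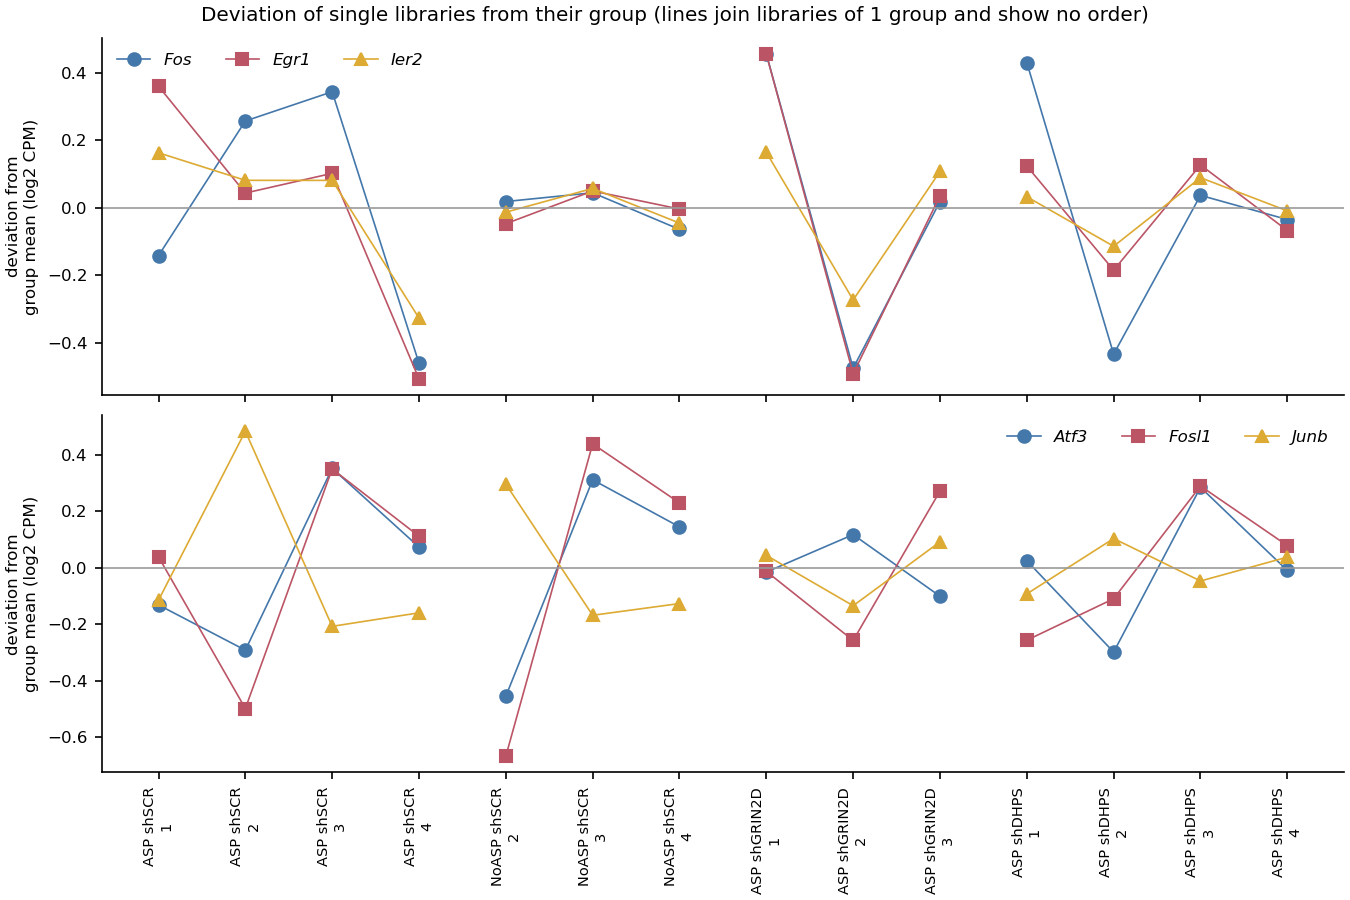
Deviation of log2 CPM from the group mean in each library for *Fos*, *Egr1* and *Ier2* (top) and for *Atf3*, *Fosl1* and *Junb* (bottom), with lines that only join libraries of a group. The top genes dip together in ASP shSCR replicate 4 and ASP shGRIN2D replicate 2, and *Junb* peaks where *Fosl1* is lowest, in replicate 2 of both shSCR groups.

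Of 10214 other genes that averaged 5 CPM or more, those most like each of 4 members over the 14 libraries were listed by Pearson r of log2 CPM. *Cst6* (0.97), *Grina* (0.97) and *Hmox1* (0.97) were most like *Atf3*, and *Mafk* (0.97), *Dusp5* (0.96) and *Tut1* (0.96) most like *Fosl1*. The likeness was lower for *Fos* (*Lman1* 0.82, *Sil1* 0.81, *Nrf1* 0.81) and *Egr1* (*Dpf2* 0.84, *Ero1b* 0.82, *AI467606* 0.81). On deviations from the group means, the leading genes were *Mrpl47* (0.93), *Tmem214* (0.92) and *Mest* (0.92) for *Atf3*, and *Plk3* (0.96), *Ppan* (0.96) and *Mafk* (0.95) for *Fosl1*. For *Fos* they were *Ddx5* (0.85), *Map2* (0.85) and *Sec24c* (0.84), and for *Egr1* *Sec24c* (0.91), *Ddx17* (0.88) and *2610203C22Rik* (0.86). *Mafk* was thus listed for *Fosl1* by both measures.

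Among 29 further immediate-early genes (of 31 listed), none was called with aspartate, 1 rose with the *Grin2d* hairpin, and 2 rose and 1 fell with the *Dhps* hairpin, where 0%, 1.16% and 4.22% of all genes were called. *Ccn1*, a matricellular protein also known as Cyr61, rose from 33.0 ± 4.50 CPM in ASP shSCR to 76.7 ± 8.48 CPM in ASP shDHPS (SD, n = 4 each), a log2 fold change of 1.22 (SE 0.16, adjusted p = 0.000124), and *Ier5* from 37.4 ± 1.93 to 52.1 ± 8.52 CPM (0.48, SE 0.12, adjusted p = 0.0298). *Egr3*, a relative of *Egr1*, fell from 33.5 ± 3.98 to 19.3 ± 1.47 CPM (-0.80, SE 0.11, adjusted p = 0.000254). The 2 Egr genes thus differed in estimate with the *Dhps* hairpin, at 0.18 and -0.80, and this difference was not tested. *Btg2*, an antiproliferative gene, rose with the *Grin2d* hairpin from 6.39 ± 0.960 to 10.7 ± 1.57 CPM (0.74, SE 0.18, adjusted p = 0.0473).

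Between the knockdowns, *Ccn1* was higher (0.99, SE 0.17, adjusted p = 0.00181) and *Egr3* (-0.91, SE 0.12, adjusted p = 7.08e-05) and *Btg2* (-0.74, SE 0.18, adjusted p = 0.0281) were lower in ASP shDHPS. *Ccn1* and *Egr3* kept their calls whichever library was left out. *Btg2* kept its call in 2 of 7 such fits (-0.81 to -0.61), and against ASP shSCR in 1 of 7 (log2 fold change 0.61 to 0.82). Against ASP shSCR *Ier5* kept it in 2 of 8 (0.41 to 0.59). The list's medians were -0.03, 0.09 and 0.06 for aspartate, *Grin2d* and *Dhps*.

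**Figure D5:**
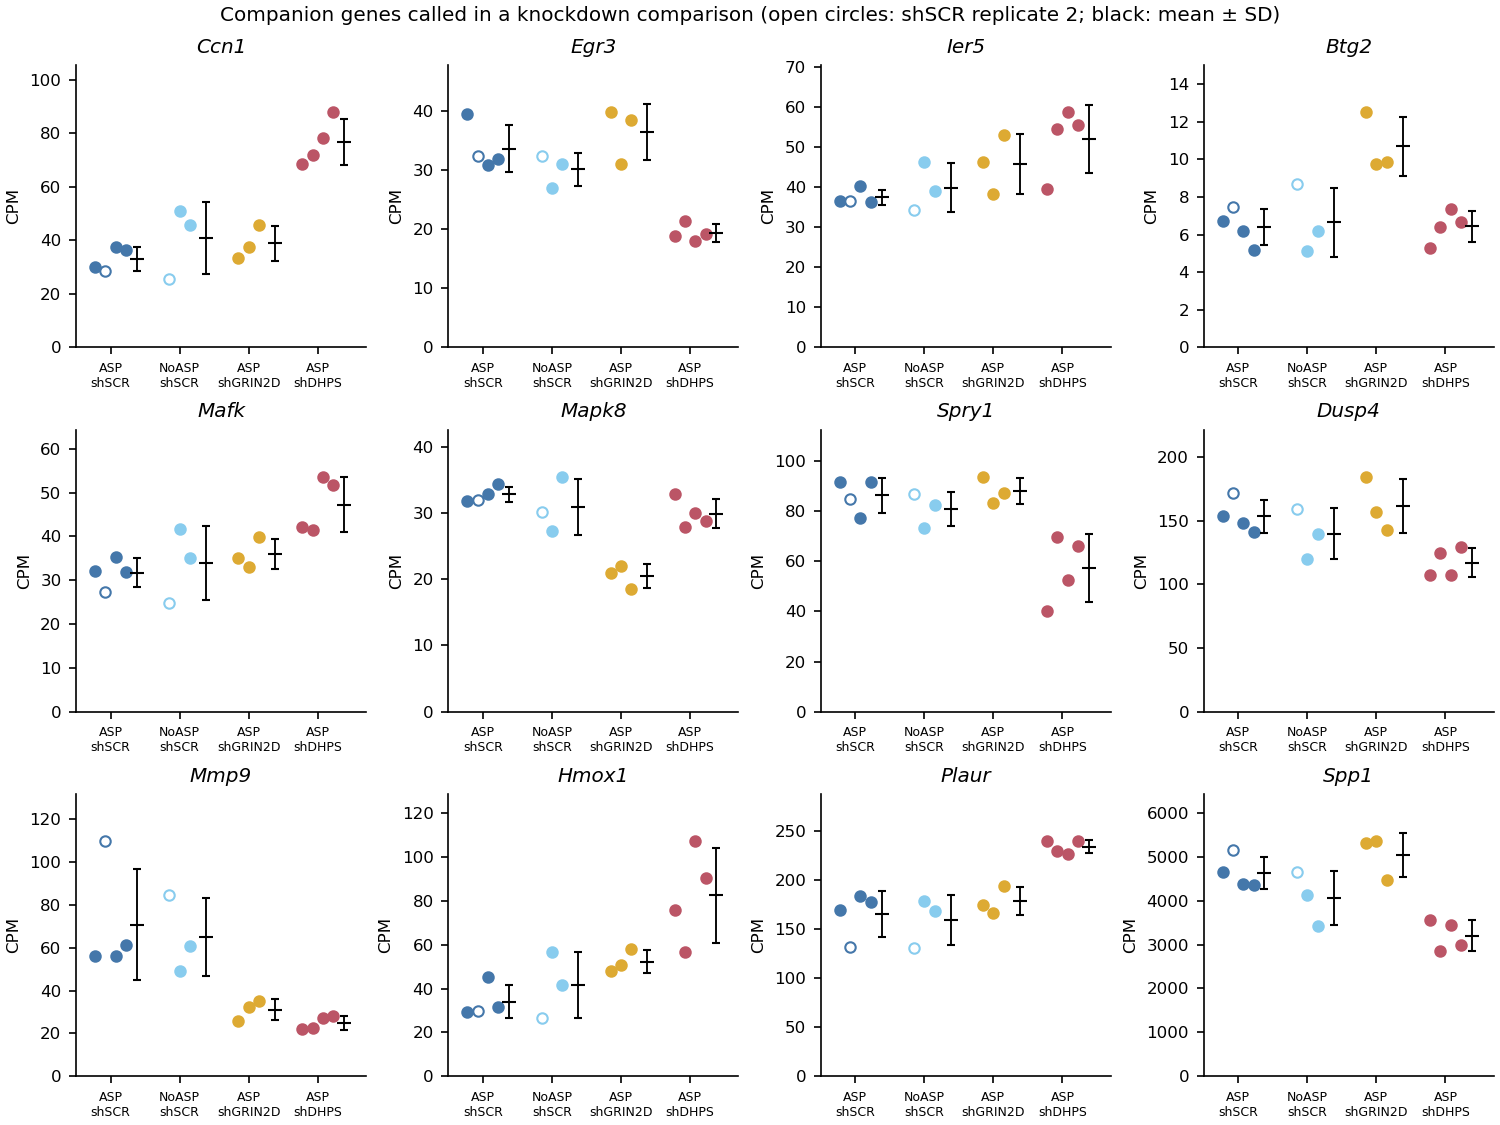
CPM (linear axis from 0) of 12 called companion genes in each library, with the group mean ± SD in black and replicate 2 of the shSCR groups as open circles. *Egr3* lies at 17.9 to 21.4 CPM and *Ccn1* at 68.6 to 87.8 CPM in ASP shDHPS, and *Mapk8* lies at 18.5 to 22.0 CPM in ASP shGRIN2D, each apart from all other groups.

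Among 10 partners of AP-1 proteins, *Mafk*, a small Maf protein, was the only gene called, higher with the *Dhps* hairpin at 47.3 ± 6.34 against 31.7 ± 3.28 CPM (0.58, SE 0.13, adjusted p = 0.0140). It lost its call without ASP shDHPS replicate 3 (0.51, adjusted p = 0.0629). Among 16 upstream regulators, 1 was lower with each hairpin, where 1.16% (*Grin2d*) and 4.22% (*Dhps*) of all genes were called. *Mapk8*, which encodes the JNK1 kinase that activates Jun, fell with the *Grin2d* hairpin from 32.8 ± 1.18 to 20.5 ± 1.81 CPM (-0.68, SE 0.11, adjusted p = 0.00174). It differed between the knockdowns (0.54, SE 0.11, adjusted p = 0.00682), a call lost without ASP shGRIN2D replicate 3 (0.48, adjusted p = 0.0680). *Mapk9*, which encodes JNK2, fell slightly with the *Dhps* hairpin, from 68.8 ± 3.15 to 56.9 ± 2.61 CPM (-0.27, SE 0.08, adjusted p = 0.0472), and was called in 1 of 8 fits with a library left out (-0.30 to -0.24). *Srf* and *Creb1* were not called in any comparison.

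A feature of the sequence moved with the *Grin2d* comparison. The 3′ UTR of *Mapk8* holds TCATGAA at 2 places in its annotated transcripts (GENCODE M21). These letters were looked for after they had been seen to be frequent in these data. The shares given here cover genes with an annotated 3′ UTR that averaged 5 CPM or more. The letters occurred in 63 of 128 called lower with this hairpin (49.2%), 5 of 58 called higher (8.62%) and 15.7% of all 9866. The UTRs differ in length. Since the letters were picked from these data, the shares are a description and not a test. *Creb1* and *Atf7* also held 2 places each and were not called with this hairpin. *Fosl2* held 1 such place, and *Atf3*, *Junb* and *Btg2* held none, nor did *Mmp9*, *Dcbld2*, *Krt7* and *Krt18*, which fell with this hairpin. The hairpin sequence is not given in the sources used here, so whether these letters match its seed was not tested. Effects of the loss of *Grin2d* and other effects of this hairpin, on *Mapk8* or on other genes, were not told apart here.

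Of 15 feedback phosphatases and inhibitors of ERK signals, 2 fell with the *Dhps* hairpin and none was called with aspartate or with the *Grin2d* hairpin (4.22%, 0% and 1.16% of all genes). *Spry1* fell from 86.3 ± 6.87 to 57.2 ± 13.5 CPM (-0.59, SE 0.12, adjusted p = 0.00811) and *Dusp4* from 153 ± 13.1 to 117 ± 11.7 CPM (-0.39, SE 0.10, adjusted p = 0.0340). Both were also lower than in ASP shGRIN2D (-0.62, SE 0.13, adjusted p = 0.0105, and -0.46, SE 0.11, adjusted p = 0.0240). Leaving out single libraries, *Spry1* kept its call against ASP shSCR in 8 of 8 fits and *Dusp4* in 4 of 8 (-0.44 to -0.33). Against ASP shGRIN2D they kept it in 6 of 7 (-0.73 to -0.49) and 3 of 7 (-0.54 to -0.35).

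The 19 known AP-1 targets went both ways. With the *Dhps* hairpin 2 rose and 3 fell, and with the *Grin2d* hairpin 2 fell, where 4.22% and 1.16% of all genes were called. The list's medians were 0.08 and 0.03. *Mmp9*, a matrix metalloprotease, fell from 70.8 ± 26.1 CPM in ASP shSCR to 24.9 ± 3.18 in ASP shDHPS (-1.51, SE 0.19, adjusted p = 9.13e-05) and 31.1 ± 4.98 in ASP shGRIN2D (-1.19, SE 0.20, adjusted p = 0.00300). ASP shSCR replicate 2 was highest in it with 109.7 CPM, and without that library the estimates were -1.21 and -0.90. *Hmox1*, heme oxygenase 1, rose from 34.0 ± 7.56 to 82.5 ± 21.6 CPM with the *Dhps* hairpin (1.28, SE 0.19, adjusted p = 0.000514), and *Plaur*, the urokinase receptor, from 165 ± 23.4 to 233 ± 6.48 CPM (0.50, SE 0.10, adjusted p = 0.00805). *Spp1*, osteopontin, fell from 4636 ± 370 to 3207 ± 345 CPM (-0.53, SE 0.10, adjusted p = 0.00480). *Dcbld2*, a membrane receptor, fell with the *Grin2d* hairpin from 150.1 ± 6.23 to 106 ± 2.57 CPM (-0.50, SE 0.09, adjusted p = 0.00348). Between the knockdowns *Hbegf*, an EGF receptor ligand, was higher in ASP shDHPS (0.36, SE 0.10, adjusted p = 0.0453) and *Spp1* lower (-0.66, SE 0.11, adjusted p = 0.00139). The call of *Hbegf* held in 2 of 7 fits with a library left out (0.26 to 0.39), and that of *Spp1* in 7 of 7.

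The remaining lists bear on the state of the cells. Of 10 heat shock genes that respond to handling, none was called with aspartate or the *Dhps* hairpin (0% and 4.22% of all genes). Their summed level was 4140 to 5313 CPM in ASP shSCR, 4331 to 5643 in NoASP shSCR, 4698 to 5517 in ASP shGRIN2D and 4555 to 6027 in ASP shDHPS. Between the knockdowns, 2 of the 10 were called lower in ASP shDHPS, where 2.82% of all genes were called. *Hspa1b* was 1 of them (-0.49, SE 0.12, adjusted p = 0.0276), with a call kept in 3 of 7 fits with a library left out (-0.58 to -0.37). Against ASP shSCR, *Hspa1b* was at -0.01 (SE 0.11, adjusted p = 0.979) with the *Dhps* hairpin. With the *Grin2d* hairpin it was at 0.48 (SE 0.12, adjusted p = 0.0567) and not called. *Hspa1a*, the near-identical copy of *Hspa1b*, averaged under 5 CPM. It is named because it was the 1 gene of the 10 called with the *Grin2d* hairpin, where it was higher and 1.16% of all genes were called. This choice was made after its values were seen. Its counts cannot be told apart from those of *Hspa1b* with certainty. The 6 epithelial markers summed to 4928 to 5075 CPM in ASP shSCR, 3642 to 3939 in ASP shGRIN2D and 3744 to 4391 in ASP shDHPS, so neither knockdown overlapped ASP shSCR. Of the 6, 2 were called with the *Grin2d* hairpin and 3 with the *Dhps* hairpin, all lower, where 1.16% and 4.22% of all genes were called. *Krt7* (-0.64 and -0.57) fell with each hairpin, *Krt18* (-0.46) with that against *Grin2d*, and *Krt19* (-0.88) and *Epcam* (-0.52) with that against *Dhps*. Leaving out single libraries, *Krt18* kept its call in 4 of 7 fits (-0.51 to -0.41) and the others in all. Between the knockdowns, *Krt19* was the 1 marker of 6 called, lower in ASP shDHPS (-0.43, SE 0.12, adjusted p = 0.0457), where 2.82% of all genes were called. That call was kept in 0 of 7 fits with a library left out (-0.48 to -0.39). Without a call, *Krt19* (-0.45, adjusted p = 0.0725) and *Epcam* (-0.33, adjusted p = 0.0787) were also lower with the *Grin2d* hairpin. So was *Krt18* (-0.31, adjusted p = 0.0600) with the *Dhps* hairpin. The part of the epithelial markers in the results of the AP-1 genes was not tested. The 3 leukocyte markers counted, of 6 listed, summed to 5.99 to 13.1 CPM in ASP shSCR and 12.5 to 16.6 CPM in ASP shDHPS, with *Cd68* as the main part, and no marker of leukocytes, fibroblasts or endothelium was called.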

How the data were processed

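The 14 libraries were assigned to 4 groups from their descriptions. Before counting, the authors used Trim Galore 0.6.6 and FastQC 0.11.9 on the reads, mapped them with STAR 2.6.1 to GRCm39, estimated abundance with Salmon 1.4.0 and deposited the estimates rounded to whole counts. Near-identical genes are split by estimation. The authors kept genes expressed in at least 2 replicates of a condition. Their DESeq2 1.34.0 table (log2 fold change, p) and gene set scores for the aspartate comparison were not used.

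Counts were tested with edgeR 4.0.16 in R 4.3.3 (quasi-likelihood, TMM factors 0.984 to 1.02, group as the only term, no further filter, Benjamini-Hochberg over 19525 genes). CPM was scaled by TMM, and log2 CPM used a prior count of 2. Exon lengths were the merged exons of GENCODE M21 (GRCm38, another build). The scripts were tested on simulated counts. No pair of replicates agreed within counting noise (chi-square per degree of freedom 8.14 to 45.0 in 18 pairs). Per the methods of the study, gradient fractions came from independent spheroid pellets, and the RNA used here was the input of such gradients. P-values measure the spread between these samples.

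The members, companion lists and alternatives were chosen with earlier results of these data known. All members are described. From each companion list the called genes that averaged 5 CPM or more are named, at most 4 per comparison. Likeness lists 3 genes per measure.

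Same-numbered libraries were checked by correlating deviations from group means. For ASP and NoASP shSCR, r was 0.514, 0.287 and 0.203, each over 0.1, a pairing hinted at by the data and not stated in the labels. Against ASP shSCR, r was 0.0401 to 0.258 for ASP shDHPS (over 0.1 in 3 of 4 pairs) and -0.117 to 0.0418 for ASP shGRIN2D. The alternatives were DESeq2 1.42.0, RLE factors, total counts, filterByExpr (13421 genes), a robust dispersion, only the groups compared, the replicate block, leaving out each library and leaving out both shSCR libraries numbered 2.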

Additional observations from a re-analysis of the deposited data

Results flagged for a closer look

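*Fosb* in ASP shDHPS replicate 1, at 8.88 CPM, lay far from the other 3 libraries of its group (13.6 to 14.2 CPM). *Junb* in ASP shSCR replicate 2, at 417 CPM, lay far from the other 3 (258 to 276 CPM). These were 2 of 20 groups of 4 libraries tested with Dixon's criterion, which chance alone passes in about 1 of 20 groups. The effects of the *Dhps* and *Grin2d* hairpins against the shared ASP shSCR libraries differed for *Atf3* (0.74 on the log2 scale) and for *Fosl2* (-0.41), by the test of ASP shDHPS against ASP shGRIN2D.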

How the results depend on the processing

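With aspartate, none of the 10 members was called in any of 16 alternatives. *Atf3* with the *Dhps* hairpin was called in 16 of 16 (log2 fold change 1.21 to 1.45). Members called with the *Dhps* hairpin were 2, 1 with a robust dispersion (*Fosl1* adjusted p = 0.156), 3 with the replicate block (*Junb* adjusted p = 0.0330) and 1 to 2 leaving out single libraries. With the *Grin2d* hairpin they were 0, and 2 with the replicate block (*Atf3* adjusted p = 0.0123, *Fosl2* 0.0316), where the numbers did not pair the libraries (r -0.12 to 0.04). Between the knockdowns they were 2, 1 with total counts alone (*Fosl2* adjusted p = 0.0566), 0 to 2 leaving out single libraries, and 3, with *Fosl1* added, in the fit of the compared groups, with the replicate block, or without both shSCR libraries numbered 2. Where the cause was not built into the alternative, the cause was not tested.

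Uncalled estimates near 0 changed sign. For aspartate, the replicate block gave 0.027 for *Fosl2* (0.050 in the shSCR libraries alone) and 0.0013 for *Jund*. It gave -0.040 for *Fos* with the *Grin2d* hairpin and -0.043 for *Jund* between the knockdowns. Leaving out both shSCR libraries numbered 2 gave 0.010 for *Ier2* with the *Dhps* hairpin. Leaving out single libraries, the aspartate estimates ranged from -0.069 to 0.047 for *Fosl2*, -0.16 to 0.0072 for *Jun*, -0.069 to 0.28 for *Junb*, -0.45 to 0.038 for *Fosl1* and -0.12 to 0.054 for *Jund*. With the *Grin2d* hairpin they ranged from -0.21 to 0.26 for *Fos*, -0.13 to 0.33 for *Egr1* and -0.15 to 0.071 for *Ier2*, and with the *Dhps* hairpin from -0.0010 to 0.29 for *Fos* and -0.11 to 0.037 for *Ier2*. Between the knockdowns they ranged from -0.10 to 0.37 for *Fos*, -0.020 to 0.093 for *Jun*, -0.042 to 0.069 for *Junb*, -0.056 to 0.078 for *Jund*, -0.15 to 0.32 for *Egr1* and -0.088 to 0.12 for *Ier2*.

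Over all genes, 226, 824 and 550 were called for *Grin2d*, *Dhps* and their difference, 442, 1379 and 933 by DESeq2, 611, 2150 and 1468 with the replicate block, and 86 to 208, 412 to 894 and 209 to 577 leaving out single libraries. The fit of the 2 groups alone called 374 for *Grin2d*, and leaving out both shSCR libraries numbered 2 called 849 for the difference. For aspartate, the replicate block called 2, or 64 in the shSCR libraries alone, and 1 gene was called without NoASP shSCR replicate 3. *Fos* had 68 to 214 counts a library and *Atf3* 99 to 415, which limits their precision.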
